A study of Mus musculus with 2 samples.

Results

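Aminoacyl tRNA synthetases, the enzymes that load each amino acid onto its transfer RNA, were followed in sorted splenic CD4+ T cells of mice labelled HFD-MI. The members were the 36 listed gene symbols found in both deposited tables of FPKM, a level per length of transcript and per mapped fragments of the library, out of 24346 symbols in all. Of these, 20 encode cytosolic enzymes and 16, marked by the suffix 2, encode mitochondrial enzymes. All 36 passed the filter used for comparisons, a mean of at least 1 FPKM over both libraries, as did 10663 of all symbols. The study had 2 libraries, both of spleen cells taken at day 14 from HFD-MI animals. In 1 group the animals were treated with probucol, which lowers cholesterol and acts as an antioxidant, and in the other they were untreated. The series title places the model in the setting of myocardial infarction, and HypoE stands in the headers of both files without explanation in the labels. The labels give neither genotype nor age, nor the number of animals behind each library. With 1 library per group no difference had a replicate check and no test was possible, so every value below describes these libraries, not the treatment. In bulk RNA, fewer cells of a type and less RNA per cell cannot be told apart.

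Each cell keeps separate sets of these enzymes for separate ribosomes. The cytosolic set serves the translation of nuclear genes, and several of its enzymes are held together with small scaffold proteins in the multisynthetase complex. The mitochondrial set is encoded in the nucleus, imported, and serves the few proteins made from mitochondrial DNA, which are subunits of the respiratory chain and ATP synthase. Gars and Kars each give rise to both a cytosolic and a mitochondrial enzyme, and mitochondria make their glutaminyl-tRNA by charging glutamate with Ears2 and then amidating it. In activated T cells, both protein synthesis and mitochondrial translation are needed for growth. Many cytosolic synthetase genes are also known targets of ATF4, the transcription factor of the integrated stress response, which is switched on when amino acids run short.

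Low FPKM values fell on steps that gave the worth of a single fragment, and these steps put the depth at an estimated 9.55e+06 fragments with probucol and 9.59e+06 untreated. Of all 24346 symbols, 14289 were above 0 with probucol and 16876 untreated, and the cause of this difference was not tested. The synthetases rested on about 64.5 to 23060 fragments per gene and library. Intervals in parentheses after a fold are 95% exact (Clopper-Pearson) binomial intervals from these estimated fragments, and they cover counting error only. They treat every fragment as an independent draw and make no allowance for PCR copies, which would make them too narrow. T cell markers were abundant, with Cd3e at 478 FPKM with probucol against 494 FPKM untreated and Cd4 at 334 and 284 FPKM, while of the 2 CD8 chains Cd8a was at 0.139 and 0.276 FPKM and Cd8b1 at 15.9 and 19.6 FPKM. Markers of other blood cells were not at the same level in both libraries. The 14 listed B cell genes summed to 76.7 FPKM with probucol against 29.4 FPKM untreated, with 9 of 10 compared genes higher and Pax5 at 0 in both. The 12 erythroid genes found summed to 368 and 1185 FPKM, with 9 of 10 compared genes lower and none at 0. The 8 natural killer genes summed to 8.78 and 18.7 FPKM, with 4 of 5 compared genes lower and Klra8 at 0 in both, and the 10 neutrophil genes found summed to 1070 and 952 FPKM, with 8 of 10 higher and none at 0. The 12 macrophage genes summed to 196 and 190 FPKM, with 6 of 10 compared genes higher and 4 lower, and Marco at 0 with probucol. Synthetases are made in all nucleated cells, and the part of these cell types in the synthetase values was not tested.

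Cytosolic synthetases formed a narrow band of levels, and mitochondrial synthetases lay lower and spread further. Over the 20 cytosolic genes the FPKM ran from 20.7 to 94.3 with a median of 49.1 with probucol, and from 21.5 to 86.8 with a median of 43.7 untreated. Over the 16 mitochondrial genes it ran from 3.69 to 546 with a median of 15.1 with probucol, and from 2.94 to 625 with a median of 12.7 untreated. Because FPKM is per length of transcript, these levels can be set side by side across genes.

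**Figure D1:**
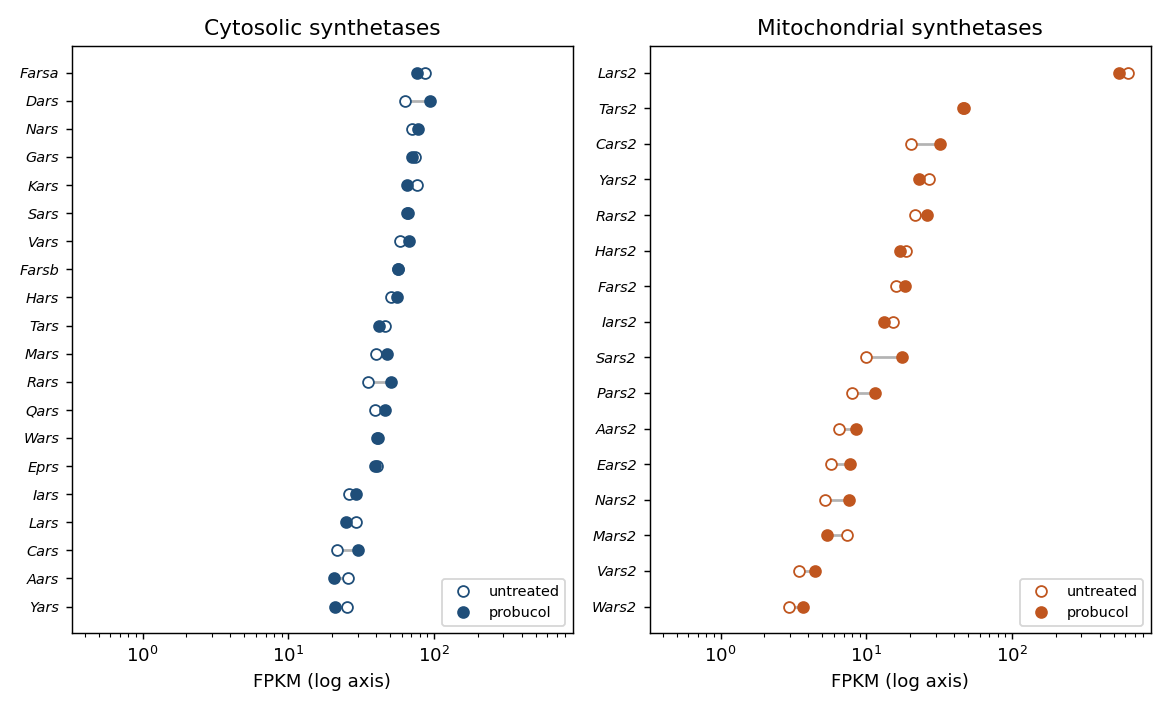
FPKM of each synthetase on a log axis, with filled circles for the probucol library and open circles for the untreated library; genes are ordered by their mean level within each compartment. Cytosolic genes lie within 20.7 to 94.3 FPKM, whereas mitochondrial genes reach down to 2.94 FPKM and Lars2 stands far above the others.

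By mean FPKM over both libraries, the order of the cytosolic enzymes began with Farsa, the catalytic chain of phenylalanyl-tRNA synthetase, at 81.4, followed by Dars at 78.7, Nars at 74.3, Gars at 72.6 and Kars at 71.3. It ended with Lars at 27.0, Cars at 25.9, Aars at 23.2 and Yars at 23.1. The top 5 do not separate, since the order of Farsa, Dars and Nars was not the same in both libraries: Dars led with probucol, at 94.3 FPKM, and Farsa untreated, at 86.8 FPKM. The other phenylalanyl chain, Farsb, was at 56.7 and 56.8 FPKM, below Farsa in both libraries.

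Among mitochondrial enzymes, Lars2, which loads leucine onto its mitochondrial tRNA, stood apart at 546 FPKM with probucol against 625 FPKM untreated. Its mean level was 42.4 times the median of the other 15 mitochondrial genes, and it made up 69.2% and 74.4% of the summed mitochondrial FPKM. By mean over both libraries, the next highest were Tars2 at 46.9 and 46.5 FPKM, Cars2 at 32.0 and 20.4 FPKM and Yars2 at 23.1 and 27.1 FPKM. Rars2, at 26.1 and 21.5 FPKM, exceeded Yars2 with probucol and Cars2 untreated, so the order below Tars2 was not the same in both libraries. The lowest by that mean were Mars2 at 5.40 and 7.35 FPKM, Vars2 at 4.47 and 3.46 FPKM and Wars2 at 3.69 and 2.94 FPKM. Untreated, Nars2, Ears2 and Aars2 lay below Mars2. Vars2 and Wars2 were the lowest in both libraries, but their counting error is wide: Wars2 rests on about 80.3 and 64.5 fragments. None of 9 annotated Lars2 transcripts matched any of 356 annotated ribosomal RNA transcripts at an expect value of 1e-05. The 45S ribosomal RNA precursor Rn45s, at 1405 and 1534 FPKM, has no sequence in that set and was not compared with Lars2.

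Across the 36 synthetases the probucol and untreated libraries were close. On the scale log2((probucol + 1)/(untreated + 1)), 21 were above 0 and 15 below, where 52.7% of all genes compared were above 0 and 47.3% below. The extremes were Sars2 at 0.76 and Mars2 at -0.38. The threshold for a count was a log2 ratio of 0.32 in size, which is 25% higher or 20% lower on this scale. It was passed upward by 9 synthetases and downward by 1, against a background of 17.8% of all genes compared upward and 14.1% downward. None of the 36 reached 2-fold, where 3.6% of all genes did in either direction. The counting interval lay above 1 for 17 and below 1 for 10 synthetases, against 28.1% and 23.3% of the genes with an estimate.

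**Figure D2:**
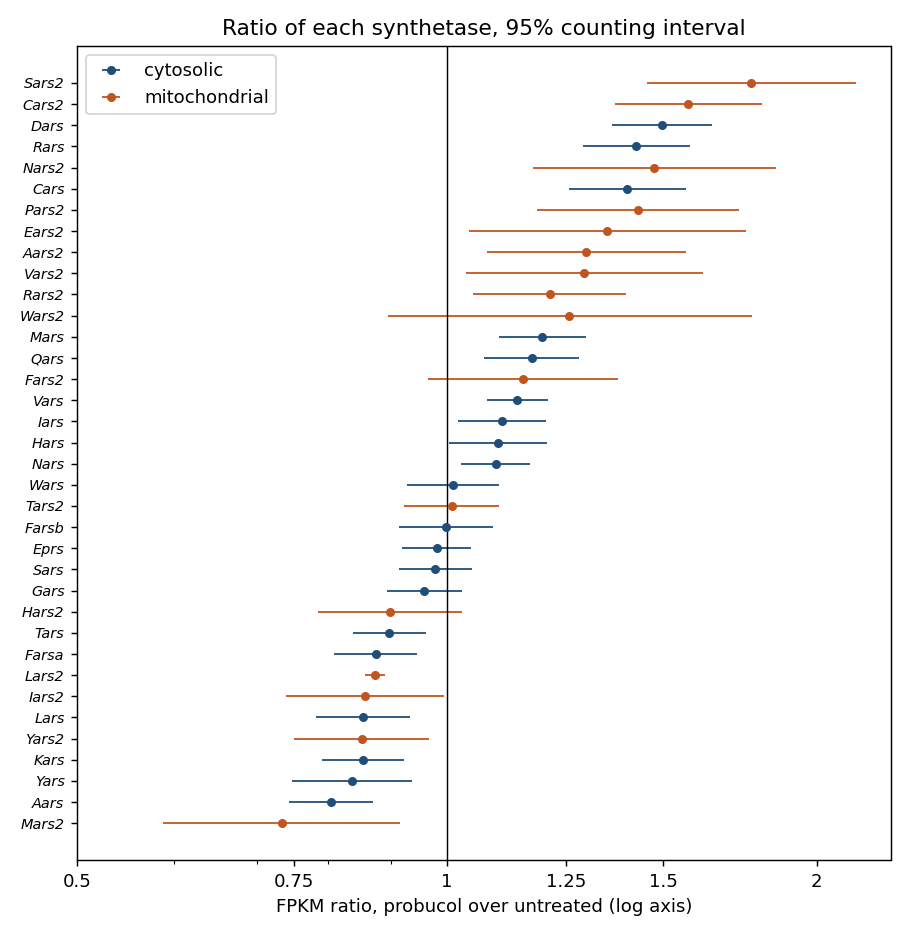
FPKM ratio of probucol over untreated for each synthetase on a log axis, with bars for the 95% counting interval (counting error of 1 library per group only); colours give the compartment. Sars2 and Cars2 lie furthest above 1, with 1.77-fold and 1.57-fold, and Mars2 lies furthest below.

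The cytosolic enzymes as a group did not lean either way: 10 were higher and 10 lower with probucol, with a median log2 ratio of 0.01 where the median of all genes compared was 0.02. The 3 past the threshold upward were Dars, Rars and Cars, and 0 passed it downward. Among the 2740 genes within the level range of the cytosolic enzymes, 10.2% passed it upward and 8.21% downward. Dars, the aspartyl-tRNA synthetase (mm10 chromosome 1, 128363707 to 128417368, minus strand), was at 94.3 FPKM with probucol against 63.0 FPKM untreated, 1.496-fold higher (1.36 to 1.64). Rars, which charges arginine (chromosome 11, 35808381 to 35834506, minus strand), was at 50.4 and 35.4 FPKM, 1.43-fold higher (1.29 to 1.58). Cars, which charges cysteine (chromosome 7, 143557230 to 143600090, minus strand), was at 30.2 and 21.5 FPKM, 1.40-fold higher (1.26 to 1.57). These were the only cytosolic genes past the threshold; the nearest to it on either side were Mars, with a log2 ratio of 0.25, and Aars, with -0.30.

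The 8 cytosolic enzymes of the multisynthetase complex had 5 higher and 3 lower, with a median log2 ratio of 0.18 and a summed level of 398 FPKM with probucol against 350 FPKM untreated. Besides Dars and Rars, the higher members were Mars, at 47.8 and 40.0 FPKM, Qars, which charges glutamine, at 45.8 and 39.1 FPKM, and Iars, at 29.1 and 26.2 FPKM. Eprs, a fused enzyme for glutamate and proline, was level at 39.7 and 40.4 FPKM. Kars, for lysine, was 1.17-fold lower (1.08 to 1.26) at 65.7 and 76.9 FPKM, and Lars was 1.17-fold lower (1.07 to 1.28) at 24.9 and 29.1 FPKM. Members of this complex thus lay on both sides of 1. Its 3 scaffold genes did so too: Aimp1 was at 42.7 and 50.2 FPKM, Aimp2 at 73.7 and 68.5 FPKM and Eef1e1, which encodes the third scaffold protein, at 51.0 and 46.5 FPKM. None of these scaffold genes passed the threshold.

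The 12 cytosolic enzymes outside the complex had 5 higher and 7 lower, with a median log2 ratio of -0.02 and summed levels of 625 FPKM in both libraries. Aars, the alanyl-tRNA synthetase (chromosome 8, 111033144 to 111057664, plus strand), was at 20.7 and 25.7 FPKM, 1.24-fold lower (1.15 to 1.34); it shares 1326 bp with Exosc6, whose reads cannot be told apart from its own there. Yars, for tyrosine, was at 21.1 and 25.2 FPKM, 1.19-fold lower (1.07 to 1.34). Apart from Cars, the enzymes of this group thus stayed within the threshold. Farsa was 1.14-fold lower (1.06 to 1.24) at 75.9 and 86.8 FPKM, and Tars, for threonine, was 1.11-fold lower (1.04 to 1.19) at 41.7 and 46.5 FPKM. Vars, for valine, was 1.14-fold higher (1.08 to 1.21) at 67.0 and 58.7 FPKM. Nars, for asparagine, stood at 77.6 and 70.9 FPKM and Hars, for histidine, at 56.2 and 51.1 FPKM, both about 1.10-fold higher. Gars at 71.1 and 74.2 FPKM, Sars at 65.2 and 66.7 FPKM, Farsb at 56.7 and 56.8 FPKM and Wars at 41.3 and 40.8 FPKM had intervals that included 1. Wars charges tryptophan and is known in human cells as an interferon-induced gene.

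The mitochondrial enzymes leaned upward with probucol: 11 were higher and 5 lower, with a median log2 ratio of 0.26 and a mean of 0.18, against 0.01 and 0.06 for the cytosolic enzymes. Of the 16, 6 passed the threshold upward and 1 downward. Among the 6364 genes within the level range of the mitochondrial enzymes other than Lars2, 19.2% passed it upward and 13.2% downward, 56.9% were above 0 and 43.1% below, and the median log2 ratio was 0.05. No test of the difference between the compartments was possible, since genes are not replicates. The counting half-width set for the mitochondrial median was 0.28. This is the size of a single gene's interval and not the counting error of a median over 16 genes. Whether the median of 0.26 exceeds counting error was not tested.

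Sars2, the mitochondrial seryl-tRNA synthetase (chromosome 7, 28741992 to 28753871, plus strand), was at 17.6 FPKM in the probucol library and 9.97 FPKM in the other. This was 1.77-fold higher (1.45 to 2.15), the largest ratio of all 36. Cars2, for cysteine (chromosome 8, 11513977 to 11550783, minus strand), was at 32.0 and 20.4 FPKM, 1.57-fold higher (1.37 to 1.80). Both rested on an estimated 165 or more fragments in each library. Nars2, for asparagine, was at 7.63 and 5.18 FPKM, 1.47-fold higher (1.18 to 1.85), and Pars2, for proline, at 11.4 and 8.004 FPKM, 1.43-fold higher (1.18 to 1.73). Ears2, for glutamate, was at 7.76 and 5.75 FPKM, 1.35-fold higher (1.04 to 1.75). Aars2, mutations of which cause an infantile cardiomyopathy in humans, was at 8.46 and 6.52 FPKM, 1.30-fold higher (1.08 to 1.57). These 4 were among the lower genes, and the lower ends of their intervals lay between 1.04 and 1.18.

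Aars2 passed the threshold narrowly, with a log2 ratio of 0.33, and Vars2 fell just short of it, with 0.30. Vars2 was at 4.47 and 3.46 FPKM and Rars2, a gene of human pontocerebellar hypoplasia, at 26.1 and 21.5 FPKM. Wars2 stood at 3.69 and 2.94 FPKM and Fars2 at 18.4 and 15.9 FPKM, both with intervals that included 1. Tars2 was level, at 46.9 and 46.5 FPKM. On the other side, Mars2, which charges methionine for both initiation and elongation in mitochondria, was at 5.40 and 7.35 FPKM, 1.36-fold lower (1.09 to 1.70). Yars2 was 1.17-fold lower (1.03 to 1.33) at 23.1 and 27.1 FPKM, Iars2 1.17-fold lower (1.01 to 1.35) at 13.2 and 15.4 FPKM, and Lars2 1.14-fold lower (1.12 to 1.17). Hars2 was at 17.0 and 18.9 FPKM, with an interval that included 1. The high level of Lars2 set the sign of the compartment's total: the 16 genes summed to 789 FPKM with probucol against 839 FPKM untreated, a ratio of 0.940, whereas the 15 without Lars2 summed to 243 and 215 FPKM, a ratio of 1.13. Leaving out Lars2 was chosen after its level was seen.

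**Figure D3:**
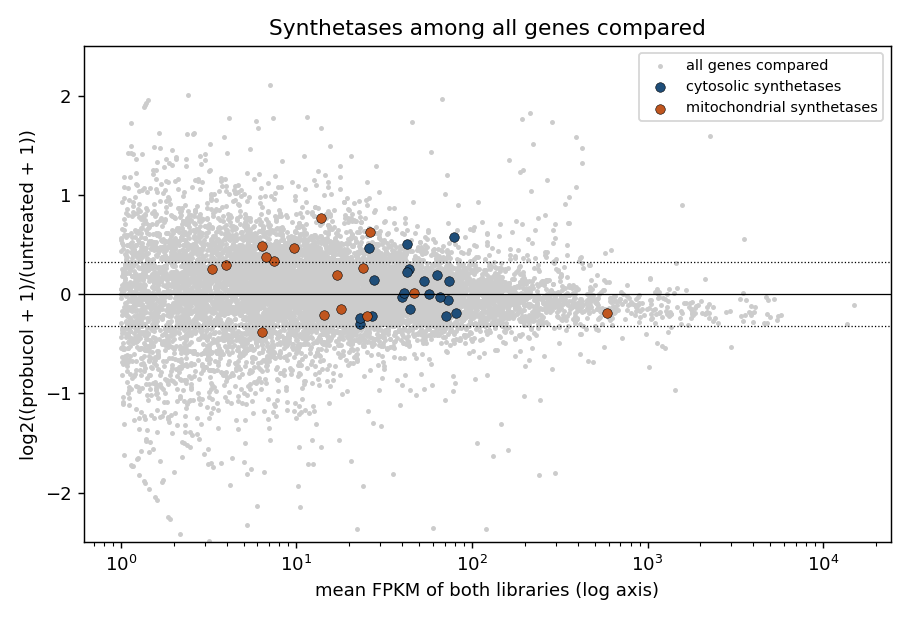
Log2 ratio of probucol over untreated (FPKM + 1) against mean FPKM of both libraries on a log axis, for all genes compared (grey) and the synthetases (coloured by compartment); dotted lines mark the threshold of 0.32, and 59 genes beyond 2.5 in either direction are outside the plotted range. The 6 mitochondrial genes above the upper line have means of 6.40 to 26.2 FPKM, where the grey cloud is also wide.

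Cytosolic and mitochondrial enzymes for the same amino acid were then set side by side in 16 pairs, with Eprs standing for both glutamate and proline and Farsa for phenylalanine. The cytosolic gene had the higher level in both libraries in 12 pairs, and the median of the cytosolic over the mitochondrial level was 3.39 with probucol and 4.50 untreated. Valine was the most uneven pair of this kind, with Vars 15.0 and 17.0 times the level of Vars2, followed by tryptophan with 11.2 and 13.9 times and asparagine with 10.2 and 13.7 times. In leucine, threonine and tyrosine the mitochondrial gene was the higher one in both libraries, by a wide margin for leucine alone. Threonine was at 46.5 FPKM for each gene untreated, and for tyrosine Yars stood at 21.1 FPKM beside 23.1 FPKM for Yars2 with probucol, and at 25.2 beside 27.1 FPKM untreated. For cysteine the partners were also close, with Cars2 slightly above Cars with probucol and slightly below it untreated, and whether these close orders exceed counting error was not tested.

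The mitochondrial partner had the higher log2 ratio in 12 of 16 pairs, and the median of mitochondrial minus cytosolic log2 ratio was 0.16. Among the 12, leucine and tyrosine were close to ties, with differences of 0.025 and 0.024 and both partners lower with probucol. The widest gap was serine, where Sars was level and Sars2 higher, a difference of 0.79. Among the other positive gaps alanine had the widest, a difference of 0.63, Aars being lower with probucol and Aars2 higher. In methionine the order was turned round, with Mars higher and Mars2 lower and a difference of -0.64. Histidine, isoleucine and arginine also had the lower ratio on the mitochondrial side, by -0.28, -0.35 and -0.23. In 9 of 16 pairs the partners lay on opposite sides of 0 and in 7 on the same side, among the latter cysteine, where both passed the threshold upward. Pairs that share Eprs are not independent of each other.

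**Figure D4:**
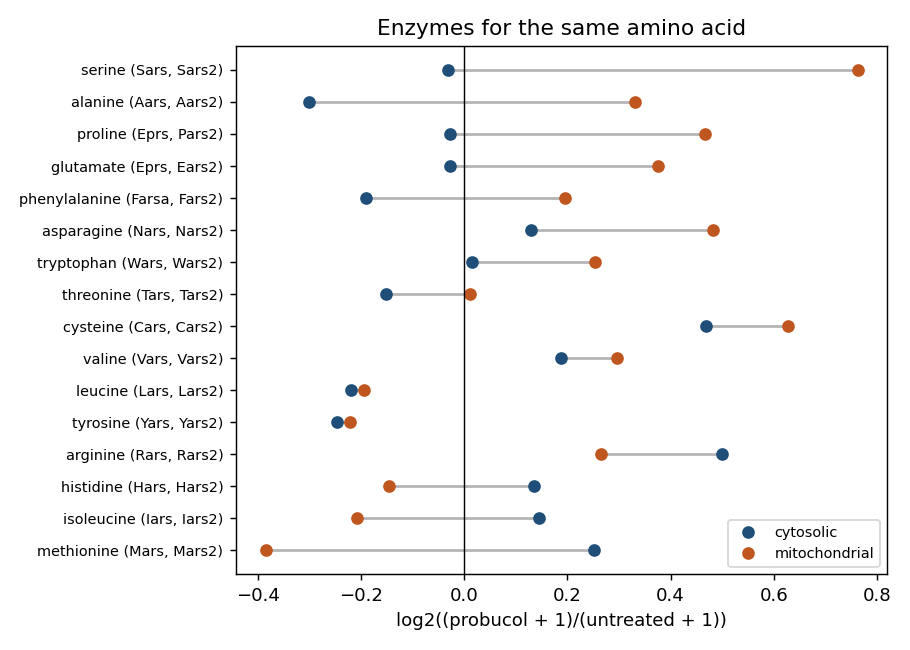
Log2 ratio of probucol over untreated (FPKM + 1) for the cytosolic and the mitochondrial enzyme of each amino acid, joined by a line and ordered by their difference; phenylalanine is shown with the catalytic chain Farsa. The mitochondrial point lies to the right in 12 of 16 pairs, furthest for serine, and to the left for arginine, histidine, isoleucine and methionine.

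Sorted by the fold of the catalytic core, a division that cuts across compartments and that the choice of genes did not use, the 18 class I enzymes had a median log2 ratio of 0.21, with 12 higher and 6 lower. The 17 class II enzymes had a median of 0.01, with 9 higher and 8 lower. The means were 0.12 in both classes, so the gap between the medians is not seen in the mean. The threshold was passed upward by 4 of class I and 5 of class II, against 17.8% of all genes compared. Eprs, which joins a class I and a class II enzyme in 1 protein, was left out of both.

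Several synthetase genes share their start region with a neighbour on the other strand. With starts at most 1000 bp apart, 8 such head-to-head pairs with a protein-coding gene of the tables were found in GENCODE release M21 (the mm10 assembly). In 5 of them both genes had a log2 ratio on the same side of 0. Of all genes compared, 52.7% were above 0 and 47.3% below, and whether the pairs differ from this was not tested. Ears2 starts 88 bp from Ubfd1, which was at 30.6 FPKM with probucol against 19.4 FPKM untreated, 1.58-fold higher (1.45 to 1.72), beside 1.35-fold for Ears2. Sars2 starts 172 bp from Mrps12, a mitochondrial ribosomal protein gene, which was at 96.7 and 83.9 FPKM, 1.15-fold higher (1.02 to 1.30), well short of the 1.77-fold of Sars2. Rars2 starts 13 bp from Orc3, a subunit of the origin recognition complex, at 16.8 and 13.7 FPKM, and Fars2 starts 114 bp from Lyrm4, at 13.5 and 11.5 FPKM. Both neighbours were higher with probucol, as their synthetases were, but the intervals of Fars2 and Lyrm4 included 1. Kars starts 75 bp from Terf2ip, at 15.5 and 17.7 FPKM, and both were lower. Hars and Hars2 start 197 bp apart and lay on opposite sides of 0, at 0.14 and -0.15. Yars and its neighbour S100pbp, at 5.99 and 5.89 FPKM, and Wars and Wdr25, at 1.51 and 2.32 FPKM, also lay on opposite sides. The intervals of S100pbp, Wars and Wdr25 included 1. The neighbours were found by position, not by their values. The labels name no stranded counting, so reads of overlapping genes cannot be told apart; 10 synthetase genes overlap another protein-coding gene, among them Ears2 with Ubfd1 by 89 bp and Iars2 with Rab3gap2 by 2034 bp.

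A motif linked to amino acid shortage was looked for in the promoters of the synthetase genes. The letters TGATGNAA are the core of the C/EBP-ATF response element to which ATF4 binds, and they were searched on both strands from 250 bases before to 50 after each start in RefSeq promoters (GRCm38.p6). Of 26 synthetases matched to a promoter by symbol, 5 of 12 cytosolic and 0 of 14 mitochondrial genes held the motif, against 3.97% of all 32851 promoter windows. The 5 were Aars, Gars, Iars, Tars and Yars, shown here from 160 bases before to 20 after the RefSeq start, 5′ to 3′ on the strand of the gene, with the motif or its reverse complement in capitals; Aars holds it in 2 places. The windows are chr8:111033682-111033861, plus strand for Aars, chr6:55037841-55038020, plus strand for Gars, chr13:49681970-49682149, plus strand for Iars, chr15:11399639-11399818, minus strand for Tars and chr4:129189743-129189922, plus strand for Yars.
Aars: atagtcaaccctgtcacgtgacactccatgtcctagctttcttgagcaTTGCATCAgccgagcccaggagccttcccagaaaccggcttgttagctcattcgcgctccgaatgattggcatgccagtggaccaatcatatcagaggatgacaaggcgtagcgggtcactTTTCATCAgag
Gars: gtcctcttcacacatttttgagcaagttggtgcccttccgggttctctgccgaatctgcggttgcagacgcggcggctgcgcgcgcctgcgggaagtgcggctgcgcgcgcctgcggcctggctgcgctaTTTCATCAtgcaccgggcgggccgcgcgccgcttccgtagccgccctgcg
Iars: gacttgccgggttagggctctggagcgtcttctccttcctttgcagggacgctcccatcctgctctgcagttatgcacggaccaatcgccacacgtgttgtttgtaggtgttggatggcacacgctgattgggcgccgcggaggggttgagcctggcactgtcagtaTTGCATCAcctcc
Tars: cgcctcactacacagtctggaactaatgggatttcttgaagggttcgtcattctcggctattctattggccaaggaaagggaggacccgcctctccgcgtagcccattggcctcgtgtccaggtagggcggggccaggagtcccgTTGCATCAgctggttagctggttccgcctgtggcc
Yars: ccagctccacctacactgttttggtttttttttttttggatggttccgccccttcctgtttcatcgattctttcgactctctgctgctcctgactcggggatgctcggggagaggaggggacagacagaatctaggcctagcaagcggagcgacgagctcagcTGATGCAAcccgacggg

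The 5 genes with these sequences had log2 ratios of -0.30 for Aars, -0.25 for Yars, -0.15 for Tars, -0.06 for Gars and 0.14 for Iars. Thus 4 were lower with probucol and 1 higher, and none passed the threshold. A wider list of 12 cytosolic synthetases known as ATF4 targets had 5 higher and 7 lower, with a median of -0.03, and the 8 cytosolic enzymes not on it had 5 higher and 3 lower, with a median of 0.16. A match is a description of letters and does not show that ATF4 was bound there in these cells.

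A second motif, CCGGAAG, the core bound by ETS family factors, was searched in the same way. Its matches shared no bases with those of the first, though the Gars promoter held both motifs. It was found in 4 of 12 cytosolic and 4 of 14 mitochondrial genes, against 8.86% of all windows. The mitochondrial genes were Cars2, Mars2, Rars2 and Sars2, among which are the 2 highest ratios and the lowest. The windows of the 2 highest are shown over the same span around the RefSeq start with CCGGAAG or its reverse complement in capitals, at chr7:28741808-28741987, plus strand for Sars2 and chr8:11550752-11550931, minus strand for Cars2. The Sars2 window lies wholly before the start of the gene in GENCODE, so its last 20 bases lie in no GENCODE transcript of it. The window also covers the start of Mrps12 on the other strand, 172 bp from that of Sars2 in GENCODE. Its match lies at that start, so it cannot be assigned to Sars2 alone, and Mrps12 was only 1.15-fold higher.
Sars2: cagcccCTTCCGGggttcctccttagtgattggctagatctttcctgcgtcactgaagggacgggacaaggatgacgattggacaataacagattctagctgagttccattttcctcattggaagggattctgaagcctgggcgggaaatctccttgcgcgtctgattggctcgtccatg
Cars2: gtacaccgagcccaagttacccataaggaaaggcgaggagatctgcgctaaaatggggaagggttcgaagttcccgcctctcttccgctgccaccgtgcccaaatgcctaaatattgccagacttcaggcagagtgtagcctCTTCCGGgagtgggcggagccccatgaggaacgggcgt

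Genes of the integrated stress response and of amino acid supply were measured beside the synthetases they are known to move with. Of 23 listed genes, 19 passed the filter, of which 10 were higher and 9 lower with a median log2 ratio of 0.04. The threshold was passed upward by 2 and downward by 2, against 17.8% and 14.1% of all genes compared. Atf4 itself was at 81.5 FPKM with probucol against 73.3 FPKM untreated, 1.11-fold higher (1.02 to 1.21). Trib3, a pseudokinase induced by ATF4, went the other way at 1.31 and 3.85 FPKM, 2.95-fold lower (1.82 to 4.95). Sesn2, a stress-induced inhibitor of mTORC1, was at 4.06 and 6.45 FPKM, 1.59-fold lower (1.27 to 1.99). Slc38a2, an amino acid transporter, was at 35.7 and 23.8 FPKM, 1.502-fold higher (1.39 to 1.62), and Mthfd2, a mitochondrial enzyme of folate metabolism, at 61.2 and 45.4 FPKM, 1.35-fold higher (1.23 to 1.48). The counting interval lay above 1 for 8 genes of the list and below 1 for 2, against 28.1% and 23.3% of all genes with an estimate. The median was 0.11 after removal of a trend on length and GC content, and also among genes with a mean of at least 5 FPKM.

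**Figure D5:**
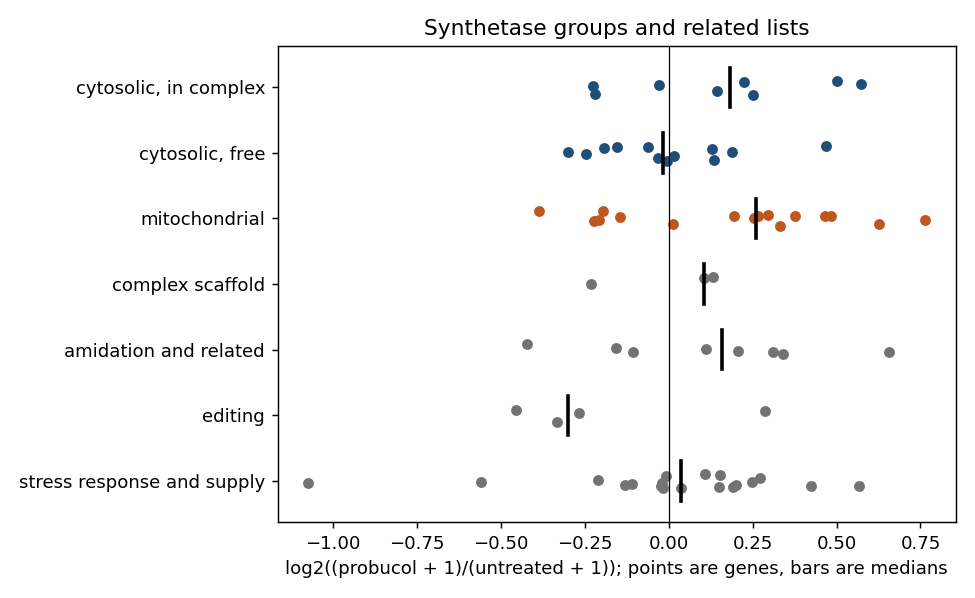
Log2 ratio of probucol over untreated (FPKM + 1) of single genes (points) and their median (black bar) for synthetase groups and related lists; only genes with a mean of at least 1 FPKM are drawn. Medians run from 0.26 for mitochondrial synthetases to -0.30 for the 4 editing genes.

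Genes that work next to the synthetases were mixed. Of 8 related genes found, 5 were higher and 3 lower, with a median log2 ratio of 0.16. Gatc, a subunit of the mitochondrial amidotransferase that finishes glutaminyl-tRNA after Ears2, was at 19.2 and 11.8 FPKM, 1.63-fold higher (1.35 to 1.96). The other subunits of that enzyme, named here for the comparison after their values were seen, did not share this: Qrsl1 was at 9.56 and 10.4 FPKM and Gatb at 7.40 and 8.37 FPKM, with intervals that included 1. Of the selenocysteine pathway, Pstk was at 20.03 and 15.6 FPKM and Sepsecs at 2.57 and 3.78 FPKM. Of 4 genes for the removal of wrongly charged or D-amino acids from tRNA, 3 were lower, 2 of them past the threshold. Among all genes compared, 14.1% passed it downward. Dtd1 was at 42.2 and 53.3 FPKM, Dtd2 at 5.23 and 7.54 FPKM and Aarsd1 at 30.5 and 36.8 FPKM, while Prorsd1 was higher at 15.7 and 12.6 FPKM.

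The upward lean of the mitochondrial synthetases was set beside the rest of the translation machinery. Mitochondrial ribosomal protein genes, taken by symbol, had a median log2 ratio of -0.02 over 77 genes, with 34 higher and 43 lower, 3 of them past the threshold upward and 10 downward. Genes with initiation or elongation factor symbols, not all of which encode such factors, had a median of -0.03 over 61 genes. The scaffold gene Eef1e1 is among them. Of these 61 genes, 26 were higher and 35 lower, with 4 past the threshold in each direction. Among all genes compared, 17.8% passed it upward and 14.1% downward. The mitochondrial synthetases thus had 6 of 16 genes past the threshold upward beside 3 of 77 mitochondrial ribosomal protein genes, whose median level of 62.7 FPKM was above the 14.03 FPKM of the synthetases. Genes pass the threshold more often at low levels, as the shares of the level ranges above show, and a test of this difference was not possible with 1 library per group.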

How the data were processed

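RNA of 2 libraries of sorted CD4+ T cells was sequenced, from SMART-Seq HT cDNA in Nextera libraries per the labels' protocols. The authors deposited FPKM, with 1 value for each symbol in each library. The submitters' processing notes name TopHat2 2.1.1, Bowtie2, Cuffdiff 2.2.1 and mm10; the annotation, filters and strand setting were not given in the sources used here. Since FPKM is no count, count models were not used.

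From these values, ratios were computed as log2((probucol + 1)/(untreated + 1)), a scale that understates changes of low genes, for genes with a mean of at least 1 FPKM; printed folds are ratios of the FPKM values themselves. The threshold was a log2 ratio of 0.32 in size. With 1 library per group no p-value was computed. Depth was estimated from genes with 1 transcript of 800 to 10000 bp in the GENCODE M21 basic set. The step that put most low values near whole fragments was 0.101 FPKM at 1 kb with probucol and 0.0995 untreated, with 210 and 220 bp subtracted; 73.7% and 75.4% of values lay within 0.1 of a whole number, where 20% would by chance. Fragments per gene used the median transcript length, limited to the RefSeq gene span. They are approximate for genes with several transcripts, and p-values or replicate spread cannot be had from them. The step fit and the intervals were tried on simulated counts. The intervals there used the simulated fragments themselves, so errors in estimated fragments and PCR copies were not tested. Promoters came from RefSeq (GRCm38.p6). Python 3.11.15, SciPy 1.17.1 and BLAST 2.17.0 were used. All 36 members were named, and from related lists up to 4 genes with the largest ratios plus a fixed set; the members and lists were chosen with earlier results of these data known. A gene of the related lists that this rule would name is not reported here. Alternatives were pseudocounts, filters, rescaling, centring, the mean, removal of a length and GC trend, and leaving out genes.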

Additional observations from a re-analysis of the deposited data

How the results depend on the processing

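With 1 library per group no replicate could be left out, and no paired analysis was possible because each group has a single library and the labels give no replicate numbers. The median log2 ratio of the mitochondrial synthetases stayed above that of the cytosolic ones under every alternative run, with a difference of 0.25 that ranged from 0.12 with means in place of medians and 0.16 with pseudocount 5 to 0.29 with pseudocount 0.1; it was 0.19 without Gars and Kars, 0.25 after removal of the trend on length and GC content, and 0.23 without genes that overlap another protein-coding gene, and 0.25 to 0.26 when each mitochondrial gene was left out in turn. The last 2 alternatives, and leaving out Lars2, were chosen after seeing the data. The counting half-width set for the difference between the compartments was 0.31. It combines widths of single-gene size and is not the counting error of a difference of medians. Whether the difference of 0.25 exceeds counting error was not tested. The count of synthetases past the threshold upward was 9 and ranged from 6 with pseudocount 5 to 10 with pseudocount 0.1; the count past it downward was 1, and became 0 with pseudocount 5 and 2 once that trend was removed; the cause was not tested. Mean levels in place of medians were 49.9 FPKM for cytosolic and 50.9 FPKM for mitochondrial genes, against medians of 44.0 and 14.03 FPKM. Without Lars2 the ratio of summed mitochondrial FPKM turned from 0.940 to 1.13. Of 180 values of single synthetases under alternatives, 178 moved by less than their counting interval and 2 by more, Eprs at -0.13 and Lars2 at -0.24 with the trend removed, and none turned from one side of 0 to the other after passing the threshold. Depth limits the low mitochondrial genes most.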

Other observations

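Of the cysteine enzymes both Cars and Cars2 passed the threshold upward, the only amino acid for which both were. Their levels were also nearly equal, with 30.2 FPKM for Cars beside 32.0 FPKM for Cars2 in the probucol library and 21.5 beside 20.4 FPKM in the other. Slc7a11, a subunit of the cystine importer and a gene of the amino acid supply list, was below the filter, at 0.133 and 0.520 FPKM, on few fragments. These values were picked out after they were seen, and they have no replicate check.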
